A study of Homo sapiens with 6 samples.

Results

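The protein 4.1 family joins proteins of the plasma membrane to the cytoskeleton under it. Its 7 genes (*EPB41*, *EPB41L1*, *EPB41L2*, *EPB41L3*, *EPB41L4A*, *EPB41L4B* and *EPB41L5*) were picked by name from the 62710 gene rows of an RNA-seq table that compares parental and onvansertib-resistant H526 cells. The family was picked because *EPB41L2* was already known to differ strongly between these same libraries. The parental and resistant values of the members are therefore given as a description, with no p-value, and the direction for *EPB41L2* is not independent evidence.

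H526 is an established human small cell lung cancer (SCLC) line. The parental group (3 libraries, numbered 1 to 3) was the line in its growth medium with no drug stated, and the resistant group (3 libraries, numbered 7 to 9) was the same line after more than a year in onvansertib, an inhibitor of the mitotic kinase PLK1, raised from 10 to 75 nM. RNA of each group was taken on 3 occasions. There was 1 resistant line, the sources do not say whether it was a clone or whether the occasions were separate cultures, and acquired resistance, drug present at harvest and long culture cannot be told apart, so all p-values here measure only the spread between these samples.

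The founding member, protein 4.1R of *EPB41*, is known from red blood cells. There it strengthens the contact of spectrin with actin and ties that meshwork to glycophorin C and to the band 3 anion exchanger. *EPB41L1* (4.1N), *EPB41L2* (4.1G) and *EPB41L3* (4.1B) encode relatives with the same plan, in which a FERM domain holds membrane proteins and a separate domain holds spectrin and actin. *EPB41L4A*, *EPB41L4B* and *EPB41L5* encode proteins with the FERM domain but without the spectrin and actin binding domain.

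The values are gene counts that the authors normalized with DESeq2, so they are comparable between libraries but not between genes of different length. Estimated depth ran from 25659170 to 28507452 reads for parental and from 22363818 to 23276810 for resistant libraries. The value of 3 reads, used as the limit of detection for counting error, lay between 2.67 and 3.22. Libraries of the same group correlated at r = 0.982 to 0.985 across genes (6 pairs) and libraries of different groups at 0.941 to 0.948 (9 pairs), and no library stood apart from its group. *POU2F3*, the factor that marks the tuft cell-like subtype of SCLC, had a mean value of 25809 ± 1178 in parental and 27273 ± 535 in resistant libraries (SD, n = 3 in each group). The neuroendocrine markers *INSM1*, *SYP*, *CHGA* and *NCAM1* all fell in the resistant group, by limma, with log2 differences from -4.22 for *CHGA* to -0.48 for *NCAM1* (adjusted p = 2.81e-06 and 0.00341), and their summed value lay between 11191 and 12564 in parental and between 4289 and 4991 in resistant libraries. In bulk RNA, fewer cells of a type and less RNA per cell cannot be told apart.

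All 7 members were measured, and all 7 had a mean value of at least 10, the minimum for a comparison. *EPB41L2* met this minimum in the parental group alone, although its parental library 3 did not. Of the 7, 4 had all resistant values above all parental values, 1 had all resistant values below, and 2 overlapped. Among all 16347 genes compared, 49.9% had values that did not overlap between the groups. The median log2 difference (resistant minus parental) was 0.30 over the members and 0.00 over all genes compared. The median absolute difference was 0.45 for the members and 0.30 for all genes. For 6 of the 7 members the difference stayed under 1 on the log2 scale, and *EPB41L2* was the exception.

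**Figure D1:**
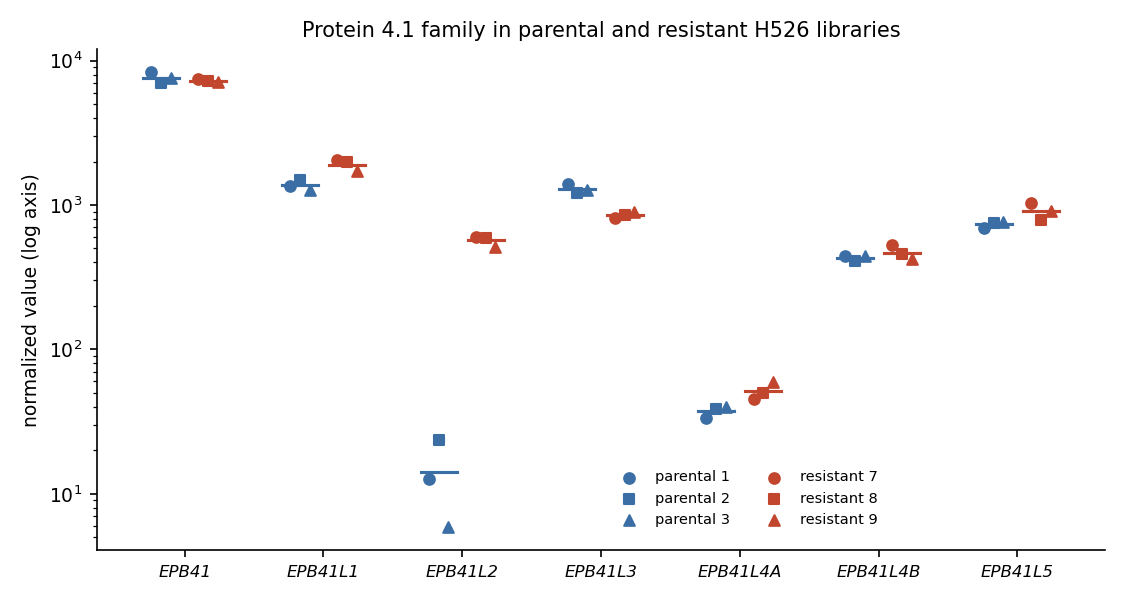
Normalized value (log axis) of the 7 protein 4.1 family genes in the 3 parental (blue) and 3 resistant (red) libraries, with a bar at each group mean and a marker shape for each library. *EPB41L2* went from between 5.85 and 23.7 to between 512 and 600, while the means of every other member differed by less than 1 on the log2 scale.

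*EPB41L2* (ENSG00000079819) lies on the minus strand of chromosome 6 (chr6:130839347-131063322, GRCh38) and encodes 4.1G, the widely expressed type of the family. Its normalized values were 12.7, 23.7 and 5.85 in parental libraries 1, 2 and 3, which equals about 14.2, 24.5 and 6.01 reads. They were 600, 592 and 512 in resistant libraries 7, 8 and 9, which equals about 573, 569 and 476 reads. All 3 resistant libraries stood far above all 3 parental ones, and the 3 parental values, although low, were above the limit of 3 reads.

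The mean of *EPB41L2* was 14.1 ± 9.0 in parental and 568 ± 48.7 in resistant cells (SD, n = 3 in each group), a ratio of 40.4. The low parental values set how well that ratio is known. The lowest resistant value was 21.6 times the highest parental value, and the highest resistant value was 102.5 times the lowest parental value. The log2 difference, taken between group means of log2(value + 1) and not from that ratio, was 5.42 with a standard error of 0.38. Adding 0.1 in place of 1 gave 5.54 and adding 10 gave 4.65, so the added value lowers differences at low values. Leaving out each library in turn gave differences from 4.95 (without parental replicate 3, the lowest parental library) to 5.87 (without parental replicate 2, the highest). By signed difference it ranked 6 of the 16347 genes compared, and 99.7% of these genes had a smaller absolute difference.

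Gencode v44 lists 34 transcripts of *EPB41L2*, and the table holds 1 value per gene, so the transcripts behind the resistant values were not resolved. RefSeq gives *EPB41L2* 4 start sites. The 250 bases before the outermost held 35 CpG dinucleotides and had a GC content of 77.6%, and 5.80% of 35116 RefSeq promoters (assembly GRCh38.p14) had as many CpG. The same stretch before its 3 inner start sites held 2 to 3 CpG. These counts describe the letters upstream of each start and say nothing of which start was used.

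The stretches upstream of 3 starts are printed because they let a reader compare *EPB41L2* with the next tested gene on its chromosome, *AKAP7*, which was listed at 0 in the parental cells, and with *EPB41*, the member with the highest level in both groups. Each is given 5′ to 3′ on the strand of its gene, with every CpG (letters CG, which read the same on both strands) in capitals. The *EPB41L2* stretch is chr6:131063323-131063495 (minus strand), that of *AKAP7* is chr6:131135217-131135466 (plus strand), and that of *EPB41* is chr1:28886850-28887090 (plus strand). The stretches of *EPB41L2* and *EPB41* stop where the Gencode gene begins.
EPB41L2: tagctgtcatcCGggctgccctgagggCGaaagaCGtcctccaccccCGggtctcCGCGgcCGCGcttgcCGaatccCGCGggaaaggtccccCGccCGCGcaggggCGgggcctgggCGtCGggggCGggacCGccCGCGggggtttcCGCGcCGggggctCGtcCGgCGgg
AKAP7: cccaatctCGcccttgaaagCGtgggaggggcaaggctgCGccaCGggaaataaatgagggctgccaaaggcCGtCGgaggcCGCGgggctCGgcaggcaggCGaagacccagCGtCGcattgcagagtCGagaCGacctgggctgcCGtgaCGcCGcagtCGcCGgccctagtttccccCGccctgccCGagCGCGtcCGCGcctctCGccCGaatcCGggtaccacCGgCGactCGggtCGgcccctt
EPB41: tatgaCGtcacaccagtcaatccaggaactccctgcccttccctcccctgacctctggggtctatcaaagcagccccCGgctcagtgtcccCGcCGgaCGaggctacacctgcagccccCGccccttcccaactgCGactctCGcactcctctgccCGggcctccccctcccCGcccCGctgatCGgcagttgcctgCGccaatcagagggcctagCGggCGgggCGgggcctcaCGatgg

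The printed *EPB41L2* stretch held 27 CpG in 173 bases, that of *AKAP7* 32 in 250 and that of *EPB41* 17 in 241. Over the full 250 bases, GC boxes (GGGCGG on either strand, each holding a CpG that is also counted above) numbered 5 for *EPB41L2*, 4 for *EPB41* and 1 for *AKAP7*. Of all promoters, 42.6% held at least 1 GC box and 93.9% at least 1 CpG. No TATAAA was found in these 3 windows on either strand, against 10.7% of all promoters with a match. CCAAT was found once upstream of *AKAP7* and once upstream of *EPB41* and not upstream of *EPB41L2*, and 32.0% of all promoters held it. For *EPB41*, 38.95% of all promoters held as many CpG as its 17, and for *AKAP7* 9.52% held as many as its 32. Before the outermost RefSeq starts of *EPB41L3*, *EPB41L4A* and *EPB41L5* the 250 bases held 25, 27 and 33 CpG, and before that of *EPB41L1* 2. Before the inner starts of *EPB41L1* they held 38 and 32 CpG, and before those of *EPB41L3* 2, 4 and 23. The window before the outermost RefSeq start of *EPB41L3* lies inside the Gencode gene. RefSeq promoters were matched for 6 of the 7 members, all but *EPB41L4B*.

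Among the genes near *EPB41L2*, *AKAP7* showed the same contrast. *AKAP7* encodes an anchoring protein for protein kinase A, and its start lies 72.1 kb from that of *EPB41L2*, on the plus strand (chr6:131135467-131283535), so that the pair is transcribed in opposite directions. No parental library gave it a value above 0, whereas its values were 46.0, 27.2 and 22.4 in resistant libraries 7, 8 and 9 (31.8 ± 12.5, SD, n = 3). The resistant values all lay above the limit of 3 reads, and no ratio is given against 0. *AKAP7* rose (adjusted p = 0.000101 by limma, between 6.57e-05 and 0.00128 in the 11 alternatives that could test it). *SMLR1*, the nearest gene on the far side of *EPB41L2* from *AKAP7*, was listed at 0 in all 6 libraries.

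Within 1 Mb of *EPB41L2* the table held 28 other genes, of which 15 were listed at 0 in all 6 libraries and 4 reached a mean of 10. Of the 4, 2 rose and none fell by limma at an adjusted p of 0.05, where 37.7% of all genes compared were called in either direction, 17.8% higher and 19.8% lower. The first was *AKAP7*, which met the minimum mean only through its resistant values, so nothing is read from this count. The second gene that rose was *MED23*, which encodes a subunit of the Mediator complex and starts 564.9 kb away. It went from 817 ± 17.6 to 1097 ± 24.5 (SD, n = 3), a log2 difference of 0.42 (standard error 0.08, adjusted p = 0.00169 by limma). *ENPP1*, an ectonucleotide pyrophosphatase gene, had 20.8 ± 5.95 in parental and 39.1 ± 9.93 in resistant cells and missed the threshold (log2 difference 0.88, adjusted p = 0.0626 by limma, between 0.0412 without parental replicate 1 and 0.201 over the alternatives). *L3MBTL3*, which encodes a reader of methylated lysines, had 318 ± 99.3 and 339 ± 70.1, with overlapping values (log2 difference 0.12, adjusted p = 0.72 by limma). The median difference of the 50 genes nearest to *EPB41L2* on the chromosome was 0.08, so the surrounding region as a whole did not show a difference of the size seen at *EPB41L2*.

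**Figure D2:**
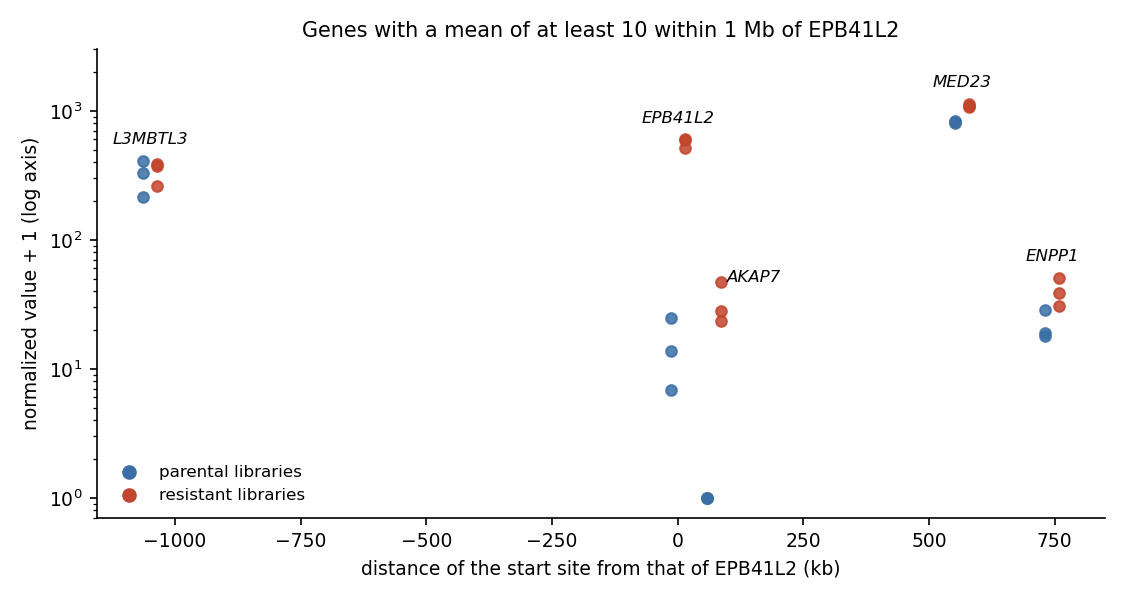
Normalized value plus 1 (log axis) of *EPB41L2* and of the 4 other genes within 1 Mb of it that had a mean of at least 10, by the distance of their start sites from that of *EPB41L2* in kb. Parental libraries (blue) and resistant libraries (red) are drawn slightly apart for legibility. *EPB41L2* and *AKAP7* separate widely, *MED23* narrowly, and *L3MBTL3* overlaps.

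*EPB41* (ENSG00000159023, chr1:28887091-29120046, plus strand) differed least. Its values were 8335, 6944 and 7520 in parental and 7438, 7248 and 7123 in resistant libraries. The resistant values lay within the parental range. The means were 7600 ± 699 and 7270 ± 158 (SD, n = 3), a log2 difference of -0.06 with a standard error of 0.07. The sign of that difference was not stable, since it was 0.02 after quantile normalization and 0.01 without parental replicate 1.

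*EPB41L1* (ENSG00000088367, chr20:36091504-36232799, plus strand) encodes 4.1N, the type known from neurons, where it binds receptors at the synapse. Its values were 1348, 1483 and 1270 in parental and 2034, 1974 and 1714 in resistant libraries. All resistant values were above all parental ones. The mean went from 1367 ± 108 to 1907 ± 170 (SD, n = 3), a ratio of 1.40 and a log2 difference of 0.48 (standard error 0.09).

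*EPB41L3* (ENSG00000082397, chr18:5392381-5630700, minus strand) encodes 4.1B, also known as DAL-1, a protein first described as lost in lung adenocarcinoma. It was the only member whose resistant values all lay below the parental ones. Its values were 1396, 1205 and 1275 in parental and 814, 852 and 896 in resistant libraries. The mean was 1292 ± 96.2 in parental and 854 ± 41.5 in resistant cells (SD, n = 3), a ratio of 0.661 and a log2 difference of -0.60 (standard error 0.09). *EPB41L3* and *EPB41L2*, which encode proteins of the same domain plan, thus lay on opposite sides of their parental levels. Leaving out each library in turn kept the difference of *EPB41L3* between -0.64 and -0.54 and that of *EPB41L1* between 0.43 and 0.55.

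The remaining 3 members lack the spectrin and actin binding domain. *EPB41L5* (ENSG00000115109, chr2:120013077-120179119, plus strand), which encodes a partner of Crumbs polarity proteins, had 695, 748 and 764 in parental and 1038, 786 and 903 in resistant libraries. Its groups did not overlap, but the resistant library 8 was only just above the highest parental value. The mean went from 735 ± 36.2 to 909 ± 126 (SD, n = 3), a log2 difference of 0.30 (standard error 0.11). *EPB41L4B* (ENSG00000095203, chr9:109171974-109321059, minus strand), also known as EHM2, had 443, 410 and 441 in parental and 528, 456 and 419 in resistant libraries. These values overlapped. The log2 difference of *EPB41L4B* was 0.11 (standard error 0.12). It ranged from 0.02 (without resistant replicate 7) to 0.19 when a library was left out, and it became 0.28 after the median of its 50 nearest genes, -0.17, was taken off.

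*EPB41L4A* (ENSG00000129595, chr5:112142441-112419313, minus strand), also known as NBL4, had low values. They were 33.6, 38.6 and 39.9 in parental and 45.3, 50.2 and 59.2 in resistant libraries. The groups did not overlap, with means of 37.4 ± 3.33 and 51.5 ± 7.03 (SD, n = 3) and a log2 difference of 0.45 (standard error 0.25). *EPB41L4A-AS1* (ENSG00000224032), a long noncoding RNA gene on the opposite strand, shares 2200 exon bases with it. The sources do not say that reads were counted by strand, so reads of the pair cannot be told apart. The noncoding gene went the other way, from 231 ± 10.7 to 164 ± 19.7 (SD, n = 3), and fell by 0.50 on the log2 scale (standard error 0.15, adjusted p = 0.0246 by limma). That call was lost without parental replicate 2, parental replicate 3 or resistant replicate 7 (adjusted p = 0.0563, 0.0807 and 0.0855 by limma, range 0.0138 to 0.0855). For the other members, no overlapping gene with shared exon bases had a mean value above 2 in either group.

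To compare levels between members, each value was divided by the length of the gene's longest transcript in kb. Per kb, *EPB41* was highest in both groups, at 1190 ± 109 in parental and 1138 ± 24.8 in resistant cells (SD, n = 3), far above every other member. In parental cells the order below it was *EPB41L3* (186 ± 13.8), *EPB41L1* (162 ± 12.8), *EPB41L5* (112 ± 5.52), *EPB41L4B* (73.1 ± 3.15), *EPB41L4A* (8.0 ± 0.714) and *EPB41L2* (3.16 ± 2.02). The highest *EPB41L1* library and the lowest *EPB41L3* library overlapped in this order, so these neighbours did not differ beyond their spread. In resistant cells *EPB41L1* came next after *EPB41* (227 ± 20.2), followed by *EPB41L5* (139 ± 19.3), *EPB41L2* (127 ± 10.9), *EPB41L3* (123 ± 5.96), *EPB41L4B* (79.3 ± 9.33) and *EPB41L4A* (11.0 ± 1.51). The ranges of *EPB41L5*, *EPB41L2* and *EPB41L3* overlapped there, and these members did not differ beyond their spread. *EPB41L2* thus went from the last of the 7 to the level of *EPB41L3* and *EPB41L5*.

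As a share of the summed per-kb value of the 7 genes, *EPB41* was 68.5% ± 1.88 in parental and 61.7% ± 0.869 in resistant libraries (SD, n = 3). *EPB41L2* was 0.185% ± 0.127 and 6.91% ± 0.419. *EPB41L3* was 10.7% ± 0.0990 and 6.67% ± 0.558. In the resistant cells these last 2 shares were close to each other. Without *EPB41*, the summed per-kb value of the 6 remaining genes was 544 ± 8.53 in parental and 706 ± 41.5 in resistant libraries. The share of *EPB41L2* in that sum was 0.514%, 0.973% and 0.245% in parental libraries 1, 2 and 3 and 17.9%, 19.0% and 17.2% in resistant libraries 7, 8 and 9.

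**Figure D3:**
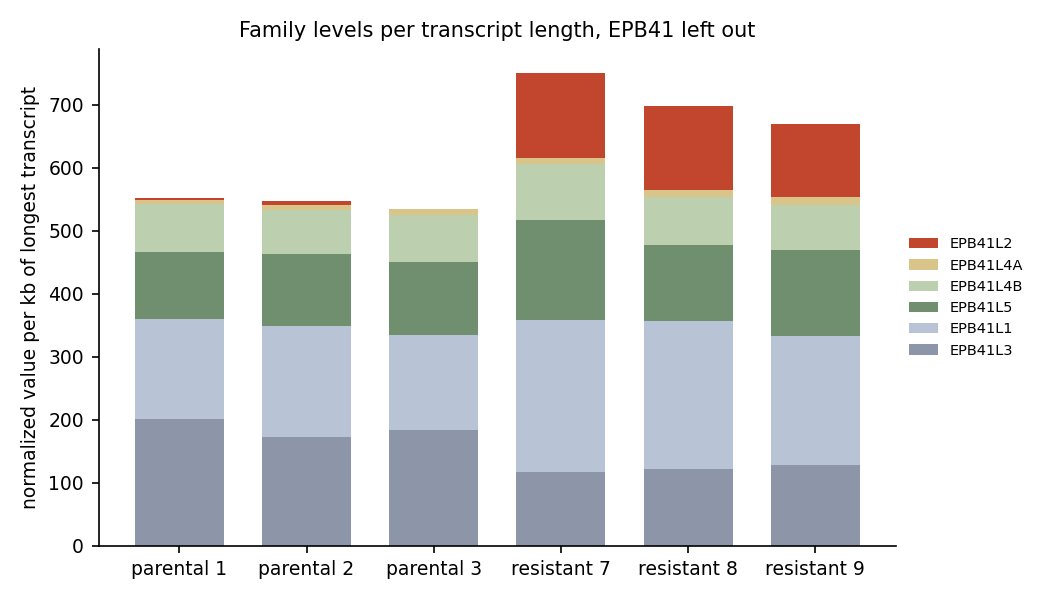
Normalized value per kb of the longest transcript for the 6 family genes other than *EPB41*, stacked for each of the 3 parental and 3 resistant libraries. *EPB41L2* (red) is hardly visible in the parental libraries and makes up 17.2% to 19.0% of the stack in the resistant ones, in which the segment of *EPB41L3* at the base is shorter.

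Genes with library profiles among the most like that of *EPB41L2* were found by the Euclidean distance between log2(value + 1) profiles, each centred on its mean over the 6 libraries, among 16346 other genes. *ZNF541* (distance 1.41) and the read-through gene *C8orf44-SGK3* (1.5) had 0 listed in every parental library, with resistant means of 34.8 ± 4.67 and 34.5 ± 12.5 (SD, n = 3). *ADAMTS7* (1.42), a metalloproteinase gene, was at or under 3 reads in all parental libraries and had 29.7 ± 7.09 in resistant ones. *FXYD5* (1.55), which encodes dysadherin, a regulator of the sodium pump, had 11.7 ± 4.36 and 289 ± 14.4. None of these 4 genes lies on chromosome 6. The nearest profiles of 5 other members were *EIF4E* for *EPB41* (distance 0.0330), *BROX* for *EPB41L5* (0.0538), *WDR89* for *EPB41L1* (0.0870), *SLC35B2* for *EPB41L3* (0.102) and *OLIG2* for *EPB41L4A* (0.128). The likeness covers 6 libraries in 2 groups and is a description.

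The membrane skeleton that 4.1 proteins hold together was examined in 23 genes. Of these, 20 had a mean of at least 10. Of the 20, 7 rose, 6 fell and 7 did not pass the test by limma. That is 65.0% called, against 37.7% of all genes compared, with a median log2 difference of -0.11. Without the trend it was 5 of 20, 25% against 31.0% of all genes, so the share above the background depended on that setting. The count was 7 without parental replicate 3 (35.0% against 29.5%) and 8 without resistant replicate 8 (40.0% against 29.4%). No direction is given for the list, since that median was 0.00 after quantile normalization. The erythroid gene *EPB42*, of protein 4.2, was listed at 0 in all 6 libraries.

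Among the spectrins, *SPTBN1*, the main non-erythroid beta spectrin gene, fell from 17360 ± 761 to 14355 ± 58.1 (SD, n = 3; log2 difference -0.27, adjusted p = 0.00368 by limma), a call lost after quantile normalization (adjusted p = 0.0502 by limma, with 0.0035 to 0.0502 over the alternatives). *SPTAN1*, its alpha partner, fell from 12017 ± 807 to 10515 ± 148 (log2 difference -0.19, adjusted p = 0.036 by limma), and lost its call in 8 of 13 alternatives, with adjusted p from 0.0253 to 0.636. These 8 included leaving out parental replicate 3 or resistant replicate 7, 8 or 9 (adjusted p = 0.157, 0.0718, 0.0848 and 0.0901 by limma, log2 differences -0.14, -0.20, -0.19 and -0.18). *SPTB*, of erythroid beta spectrin, rose from 430 ± 55.3 to 609 ± 89.2 (log2 difference 0.50, adjusted p = 0.0154 by limma). Without parental replicate 1, parental replicate 3 or resistant replicate 7 its adjusted p was 0.0537, 0.0547 and 0.0621 by limma (range 0.00914 to 0.0621). The call for *SPTB* was also lost without the trend. In all, 4 of the 6 spectrin genes compared fell and 2 rose.

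The proteins that cap and line actin filaments split within families. *TMOD3*, of the widely expressed tropomodulin, rose from 2593 ± 173 to 4710 ± 304 (SD, n = 3; log2 difference 0.86, adjusted p = 1.87e-05 by limma), while *TMOD1*, of the erythroid and muscle type, fell from 164 ± 15.4 to 51.2 ± 11.1 (log2 difference -1.68, adjusted p = 0.000242 by limma). *TPM1*, a tropomyosin gene, rose from 4645 ± 998 to 7288 ± 909 (log2 difference 0.66, adjusted p = 0.00414 by limma). *TPM3*, another, fell from 16764 ± 673 to 14192 ± 1134 (log2 difference -0.24, adjusted p = 0.0193 by limma). The call for *TPM3* was lost without parental replicate 3, resistant replicate 8 or resistant replicate 9 (adjusted p = 0.0834, 0.0733 and 0.057 by limma, range 0.0102 to 0.105). It was also lost after quantile normalization and without the trend. *ANK3*, of ankyrin-G, rose from 1085 ± 92.7 to 1591 ± 167 (log2 difference 0.55, adjusted p = 0.00164 by limma), and none of the 3 adducin genes passed the test.

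Known binding partners of 4.1 proteins were 31 genes, and 23 had a mean of at least 10. Of the 23, 9 rose, 5 fell and 9 did not pass the test by limma, 60.9% called against 37.7% of all genes compared. Their median log2 difference was 0.31. The share called was 41.7% without parental replicate 1, against 33.1% of all genes, so its size depended on the libraries used. More rose than fell under each of the 13 alternatives run for the lists. The red cell partners glycophorin C (*GYPC*) and band 3 (*SLC4A1*) were at or under 3 reads in all 6 libraries. *CD44*, a hyaluronan receptor whose cytoplasmic tail binds 4.1 and ERM proteins, rose from 12.5 ± 7.34 to 72.0 ± 7.33 (SD, n = 3; log2 difference 2.57, adjusted p = 0.000776 by limma). Its parental values were low, as those of *EPB41L2* were.

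Of the MAGUK scaffold genes, whose proteins join 4.1 proteins to adhesion and polarity receptors, 4 of the 8 compared rose and none fell, where 17.8% of all genes compared rose, and nothing is read from a share of so few genes. *MPP2* rose from 560 ± 32.6 to 886 ± 41.3 (SD, n = 3; log2 difference 0.66, adjusted p = 0.000329 by limma) and *PALS2* from 1385 ± 127 to 1811 ± 112 (log2 difference 0.39, adjusted p = 0.00631 by limma). The cell adhesion molecules bound by 4.1B, the product of *EPB41L3*, were lower in 2 of 3 genes compared. Of all genes compared, 19.8% fell, and nothing is read from a share of so few genes. *CADM3* fell from 700 ± 70.4 to 108 ± 1.55 (log2 difference -2.68, adjusted p = 4.84e-07 by limma) and *CADM1* from 10357 ± 631 to 7542 ± 523 (log2 difference -0.46, adjusted p = 0.000703 by limma). *CADM4* did not pass the test (log2 difference -0.22, adjusted p = 0.0773 by limma). A link of these genes to the lower values of *EPB41L3* was not tested.

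*PRMT5*, of an arginine methyltransferase, rose from 4533 ± 250 to 6195 ± 417 (SD, n = 3; log2 difference 0.45, adjusted p = 0.000753 by limma). *PXN*, of the focal adhesion protein paxillin, fell from 1238 ± 40.2 to 900.4 ± 71.9 (log2 difference -0.46, adjusted p = 0.00203 by limma). *CRB1*, of a Crumbs polarity protein, fell from 44.5 ± 18.4 to 16.2 ± 1.72 (log2 difference -1.33, adjusted p = 0.015 by limma), a call lost without parental replicate 1 (adjusted p = 0.0588 by limma, range 0.00774 to 0.0588). *NUMA1*, whose product holds the mitotic spindle at the cell cortex together with 4.1 proteins, had 9519 ± 739 and 10720 ± 776 and missed the threshold (log2 difference 0.17, adjusted p = 0.101 by limma), but passed it after upper-quartile scaling and quantile normalization (adjusted p = 0.0473 and 0.0148 by limma, range 0.0148 to 0.31).

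The other genes of FERM domain proteins numbered 46, and 37 had a mean of at least 10. Of the 37, 15 rose, 3 fell and 19 did not pass the test by limma, 48.6% called against 37.7% of all genes compared, with a median log2 difference of 0.20. The share called was at the background without the trend (32.4% against 31.0% of all genes), without parental replicate 1 (32.4% against 33.1%) and without resistant replicate 8, where 11 genes were called (29.7% against 29.4%), so no difference from all genes is read from it. More genes of this list, too, rose than fell under each of the 13 alternatives. The 3 ERM relatives compared did not pass the test. *EZR*, of ezrin, had 6105 ± 244 and 5828 ± 205 (SD, n = 3; log2 difference -0.07, adjusted p = 0.415 by limma). *RDX*, of radixin, had 7984 ± 135 and 8655 ± 154 (log2 difference 0.12, adjusted p = 0.115 by limma), and passed the threshold after upper-quartile scaling and quantile normalization (adjusted p = 0.0211 and 0.00815 by limma, range 0.00815 to 0.257). *NF2*, of merlin, had 1048 ± 21.0 and 1128 ± 43.6 (log2 difference 0.11, adjusted p = 0.301 by limma). *MSN*, of moesin, had a mean of 0.383 in parental libraries and was listed at 0 in resistant ones.

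Both talin genes, 2 of 3 kindlin genes and 3 of 5 tyrosine phosphatase genes among the other FERM genes rose in the fit to all 6 libraries. The values of the talin gene *TLN2* overlapped between the groups. None of the 6 FRMD family genes, 2 myosin genes and 2 sorting nexin genes compared rose. Of all genes compared, 17.8% rose, and nothing is read from shares of so few genes. *PLEKHH1* rose from 253 ± 42.2 to 727 ± 112 (SD, n = 3; log2 difference 1.52, adjusted p = 5.34e-05 by limma), *PTPN14*, a phosphatase gene, from 335 ± 52.9 to 863 ± 56.6 (log2 difference 1.37, adjusted p = 3.1e-05 by limma), and *PTK2B*, of a kinase related to focal adhesion kinase, from 187 ± 30.7 to 394 ± 27.7 (log2 difference 1.08, adjusted p = 0.000373 by limma). *PTPN3* rose from 868 ± 55.7 to 1190 ± 8.55 (log2 difference 0.46, adjusted p = 0.00151 by limma). *FRMD8* fell from 2241 ± 157 to 1651 ± 44.8 (log2 difference -0.44, adjusted p = 0.00116 by limma), and *MYLIP*, of a ubiquitin ligase for the LDL receptor, fell from 486 ± 25.4 to 339 ± 32.9 (log2 difference -0.52, adjusted p = 0.0052 by limma). *PLEKHH3* fell from 2357 ± 321 to 1876 ± 79.7 (log2 difference -0.32, adjusted p = 0.0235 by limma), a call lost without parental replicate 2 or resistant replicate 7 (adjusted p = 0.066 and 0.0765 by limma, range 0.0104 to 0.0848). That call was also lost after upper-quartile scaling and without the trend. None of these genes differed by as much as *EPB41L2* on the log2 scale.

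**Figure D4:**
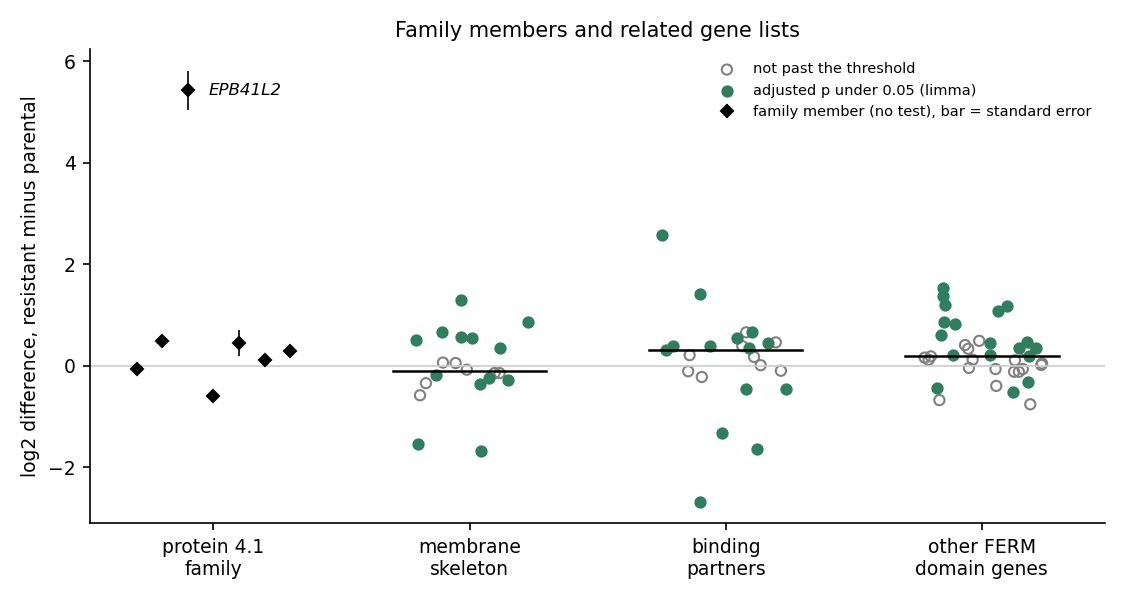
Log2 difference (resistant minus parental) of the 7 protein 4.1 family genes in their usual order from *EPB41* to *EPB41L5* (black diamonds with standard errors, no test) and of the tested genes of 3 related lists (circles, filled where the adjusted p by limma was under 0.05, spread sideways for legibility). Horizontal bars mark the list medians of -0.11, 0.31 and 0.20, and *EPB41L2* at 5.42 lies above every other point, the next being *CD44* at 2.57.

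Within 1 Mb of the 7 members together lay 307 other genes, of which 94 were compared. Of the 94, 17 rose and 18 fell by limma, 37.2% called against 37.7% of all genes compared, so the surroundings of the members were at the background. The median difference of the 50 nearest genes lay between -0.17, around *EPB41L4B*, and 0.09, around *EPB41L3*. The called neighbours with an absolute log2 difference of at least 1, beside *AKAP7*, were 5 genes. Near *EPB41L1*, *MMP24* fell from 226 ± 40.5 to 15.1 ± 0.919 (SD, n = 3; log2 difference -3.80, adjusted p = 2.4e-06 by limma). *SLA2* had 3.79 ± 1.39 in parental and 18.8 ± 4.71 in resistant cells (log2 difference 2.06), and *TLDC2* had 3.0 ± 3.30 and 19.3 ± 8.08 (2.68). Both *SLA2* and *TLDC2* reached the minimum mean of 10 only through their resistant values, so no p-value is given for them. Near *EPB41L4A*, *CAMK4* fell from 111 ± 23.6 to 29.4 ± 29.1 (log2 difference -2.29, adjusted p = 0.00816 by limma), with resistant library 9 at 62.8 and the other resistant libraries at 15.7 and 9.72. Near *EPB41L5*, *STEAP3* fell from 122 ± 28.6 to 60.1 ± 10.6 (log2 difference -1.0, adjusted p = 0.00743 by limma).

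Markers of other cell types were read beside the difference of *EPB41L2*, which is expressed widely in tissues. None of the 5 erythroid markers reached a mean of 10, *HBB* and *ALAS2* were listed at 0 in all 6 libraries, and the summed value of the list lay between 0 and 1.96 in parental and between 2.08 and 3.14 in resistant libraries. Of the 5 fibroblast markers, *COL1A1* and *COL1A2* rose by 2.20 and 1.15 on the log2 scale (adjusted p = 0.000108 and 0.0086 by limma). *DCN* was at or under 3 reads in all 6 libraries, and *PDGFRB* did not reach a mean of 10. The summed value lay between 3492 and 4143 in parental and between 3843 and 4715 in resistant libraries. Most of that sum was *THY1*, with 3663 ± 339 in parental and 3713 ± 368 in resistant cells (log2 difference 0.02, adjusted p = 0.888 by limma). Of the 4 leukocyte markers, only *CD14* reached a mean of 10, *CD3E* and *MS4A1* were listed at 0 in all 6 libraries, and the sums were 16.3 to 17.9 and 10.1 to 14.5. Of the 3 epithelial markers, *EPCAM* and *KRT8* fell by 0.23 and 0.22 on the log2 scale (adjusted p = 0.0441 and 0.0316 by limma) and the sums were 29555 to 32622 and 24481 to 28042. Both calls were lost without parental replicate 1, parental replicate 3 or resistant replicate 8 (adjusted p = 0.12, 0.0768 and 0.144 for *EPCAM* and 0.086, 0.0647 and 0.11 for *KRT8* by limma), and that of *EPCAM* also without resistant replicate 7 (0.0858 by limma). Both calls were also lost with no minimum, after upper-quartile scaling or quantile normalization, and without the trend. In all, *EPCAM* lost its call in 8 of 13 alternatives and *KRT8* in 7. Over all alternatives the adjusted p ranged from 0.0275 to 0.144 for *EPCAM* and from 0.0293 to 0.224 for *KRT8*. The part of these markers, and of the lower neuroendocrine markers, in the difference of *EPB41L2* was not tested. Of the SCLC subtype factors, *YAP1* rose from 48.9 ± 6.86 to 111 ± 16.1 (SD, n = 3; log2 difference 1.17, adjusted p = 0.00236 by limma), and an exact two-sided permutation test of any single gene cannot give a p below 0.10 with 3 against 3 libraries.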

How the data were processed

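RNA of 3 parental and 3 onvansertib-resistant H526 libraries was sequenced after an NEBNext Ultra preparation. The authors trimmed reads with Trimmomatic 0.38, aligned and counted them with RSEM 1.3.1 and STAR on the GRCh38 primary assembly with Gencode v43, and normalized the gene counts with DESeq2 1.30.0. What was deposited is thus a normalized signal for each gene in each library, and replicates were not pooled. They are not counts, so the Wald test of the study was not rerun. The value of 1 read was estimated for each library from the steps between low values, but only 48.9% to 62.0% of low values were whole (within 0.05 read), so whole reads were not recovered and depths are estimates.

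Of 62757 rows, 47 second copies of pseudoautosomal genes were left out. Symbols and positions were taken from Gencode v44 and matched 62639 of 62710 rows. Promoter sequences were those of RefSeq GRCh38.p14. Genes with a mean of at least 10 (16347) were compared in limma 3.58.1 under R 4.3.3, on log2(value + 1) (lmFit, eBayes with an intensity trend, no covariate), with Benjamini-Hochberg adjustment over all of them at 0.05. The procedure was also run on simulated data. These had independent noise and far fewer changed genes than were called here, so they do not show its performance on these libraries. Figures were drawn with matplotlib 3.10.9.

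The members and all gene lists were chosen with earlier results of these data known. Genes named were the 7 members, in each list up to 4 called genes in each direction with the smallest p, 8 further genes named whatever their values (*NUMA1*, *CADM1*, *SPTAN1*, *SPTBN1*, *EZR*, *RDX*, *MSN* and *NF2*), every gene within 1 Mb of *EPB41L2* with a mean of at least 10, called genes near other members with an absolute log2 difference of at least 1, and the genes of most similar profile (5 for *EPB41L2*, 1 for each other member). A few genes that these rules name are not reported here. Other genes appear as cell type markers, as genes that overlap a member, or as list members or neighbours listed at or near 0. Alternatives were pseudocounts of 0.1 and 10, no minimum, a minimum mean of 50, upper-quartile scaling, quantile normalization, no trend, centring on the 50 nearest genes and leaving out each library.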

Additional observations from a re-analysis of the deposited data

How the results depend on the processing

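No paired analysis was possible because the parental and resistant libraries share no replicate numbers and the sources do not say which parental and resistant RNA came from the same occasion. The log2 difference of *EPB41* turned from -0.06 to 0.021 after quantile normalization and to 0.0084 without parental replicate 1, all within its standard error of 0.07, and leaving out each library gave -0.12 to 0.01. That of *EPB41L4B* moved from 0.11 to 0.28 with local median centring and lay between 0.02 and 0.19 when a library was left out. The other members kept their direction in every alternative that gave a value, and *EPB41L4A* gave none at a minimum mean of 50. *EPB41L2* ranged from 4.65 with a pseudocount of 10 to 5.87 without parental replicate 2, and the lowest value shows how the pseudocount weighs on its low parental level. Membrane skeleton genes called went from 13 to 5 without the trend (25%, against 31.0% of all genes) and to between 7 (without parental replicate 3) and 12 when a library was left out, with 8 without resistant replicate 8. Called genes of other FERM domain proteins went from 18 to between 11 (without resistant replicate 8) and 15. These fits had fewer samples. The count of binding partners lay between 10 and 15 and that of genes near the members between 27 and 34. Over all genes, 4784 to 5618 were called against 6161. Upper-quartile scaling shifted the median of all genes by 0.05 and the share of calls that were higher from 47.3% to 55.8%. Of 162 values recomputed under an alternative, 155 kept their direction and stayed within the spread between replicates or, for counts, within 1.5 times, 5 moved further and 2 reversed, and the cause of the moves was not tested beyond these fits. The parental values of *EPB41L2*, near 6 to 24 reads, limit the precision of its ratio.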
